A study of Mus musculus with 6 samples.

Results

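The genes described here make the proteins that copy DNA, together with genes switched on for S phase. They were 40 genes given as a list of symbols, and all 40 were found among the 11452 gene symbols of the deposited table of RNA sequencing levels. The cells were pools of 4T1, a mouse mammary tumour line, that were knockout (KO) or wild type (WT) for Myo1e, the gene of the motor protein myosin 1e, with 3 libraries per genotype. The labels do not say how the knockout was made, or whether a pool came from 1 clone or many. The columns of the table are numbered 4, 1 and 2 in each genotype, and libraries are named here by genotype and number, as KO 4 or WT 1.

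Before a cell divides it copies each stretch of DNA once. In G1, the MCM helicase is loaded at origins, a step called licensing. At the start of S phase, cyclin E with its kinase activates the loaded helicase, and polymerases, a sliding clamp and its loader follow it at the fork. Ribonucleotide reductase and thymidylate synthase supply the nucleotides, and histone chaperones rebuild chromatin behind the fork. Many of these genes are targets of E2F transcription factors and are transcribed around the G1 to S transition, so their RNA is plentiful in cultures with many cycling cells. The list was divided by role into licensing (8 genes), fork (11), nucleotide supply (3), chromatin and histones (8), repair (7) and S phase control (3).

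Members of this set often carry E2F-type words near their start, and the promoters below show both members that have such words and a member that has none. The words searched, on both strands, were TTTGGCGC, TTTCCCGC, TTTCGCGC and TTTGCCGC, in windows of 250 bases before to 50 after the RefSeq start (GRCm38.p6). Of the 40 genes 30 had a window, and 13 of these 30 (43.3%) held at least 1 word, against 5.08% of the 8944 tested genes with a window and 2.61% of all 27025 genes with one. The words were in 5 of 6 licensing genes, 3 of 7 fork genes, 4 of 7 chromatin genes and 1 of 2 control genes, and in 0 of 3 nucleotide supply genes and 0 of 5 repair genes with a window. CCAAT, the word bound by NF-Y, was in 21 of the 30 members with a window and in 43.7% of the tested genes with one. The CHR words TTTGAA or TTCGAA were in 23.3% of these members and 16.04% of these tested genes. A gene with more than 1 window was counted once, if any of its windows held the word. A match is a description of letters and not a measured binding site. The stretches printed lie upstream of both the RefSeq and the GENCODE M21 start, run 5′ to 3′ on the gene's strand, and have the E2F-type words in capitals, where words can overlap.
Mcm5, chr8:75109309-75109508, plus strand, 2 overlapping words: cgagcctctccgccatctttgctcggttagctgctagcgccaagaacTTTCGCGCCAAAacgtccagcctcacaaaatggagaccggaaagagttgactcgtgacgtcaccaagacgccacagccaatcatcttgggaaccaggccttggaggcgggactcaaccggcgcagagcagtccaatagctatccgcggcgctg
Mcm6, chr1:128359706-128359905, minus strand, 3 words of which 2 overlap: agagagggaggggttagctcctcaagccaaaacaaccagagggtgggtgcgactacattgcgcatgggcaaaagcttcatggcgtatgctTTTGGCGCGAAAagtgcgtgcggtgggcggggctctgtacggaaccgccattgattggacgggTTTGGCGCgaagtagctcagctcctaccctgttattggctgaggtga
Cdca7, chr2:72475969-72476158, plus strand, 1 word: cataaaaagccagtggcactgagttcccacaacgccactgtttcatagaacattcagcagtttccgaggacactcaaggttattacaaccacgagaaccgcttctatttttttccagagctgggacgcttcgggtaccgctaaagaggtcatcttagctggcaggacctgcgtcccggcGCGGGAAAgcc
Pola1, chrX:93632156-93632355, minus strand, 1 word: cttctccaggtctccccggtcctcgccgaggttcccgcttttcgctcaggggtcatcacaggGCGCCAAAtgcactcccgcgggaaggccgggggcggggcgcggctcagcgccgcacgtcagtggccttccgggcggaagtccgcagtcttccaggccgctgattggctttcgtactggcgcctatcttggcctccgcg
Rrm2, chr12:24708041-24708240, plus strand, no word: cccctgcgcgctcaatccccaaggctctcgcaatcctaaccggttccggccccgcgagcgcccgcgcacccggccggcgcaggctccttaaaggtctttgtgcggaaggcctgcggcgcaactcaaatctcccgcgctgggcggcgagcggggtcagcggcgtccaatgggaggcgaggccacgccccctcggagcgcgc

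Levels are in log2 CPM, read counts scaled by a library size and logged by the authors after adding a small prior. Whole reads could be recovered from these values, and they numbered 17772003 to 19988206 per library. The library size behind the values was not the read total. It was above that total in KO 4 (20840600 against 19560010) and WT 4 (18721100 against 17980487), and below it in KO 1, KO 2, WT 1 and WT 2. Scaling by the read total was not among the alternatives run. It would raise the values of KO 4 and WT 4 and lower those of the others. The smallest differences of the libraries numbered 4 below, such as -0.18 for Usp1, may therefore depend on the library size used. The 2 libraries numbered 4 stood apart from the other 4 across the transcriptome, on a first principal component that held 83.8% of the variance. Mitochondrially encoded genes also change with RNA quality, and 7 of 13 listed were measured. They held 0.343% and 0.309% of the reads in KO 4 and WT 4, against 0.493%, 0.416%, 0.435% and 0.379% in KO 1, KO 2, WT 1 and WT 2. Their median difference in the libraries numbered 4 was -0.65 on the log2 scale, from -1.68 for mt-Nd6 to -0.12 for mt-Co1. The part of this in the results below was not tested. All 8 epithelial markers listed were measured, with a summed level of 3530 and 3839 CPM in KO 4 and WT 4 and 4425 to 5163 CPM in the others. They went both ways in the libraries numbered 4, with 4 lower and 3 higher past the threshold. Of all genes tested 33.8% were lower and 31.8% higher. Among the markers were the abundant keratin gene Krt8 at -1.27 and Krt7 at -0.70, against Epcam at 0.46, Cdh1 at 0.36 and Cldn4 at 0.89. Of the fibroblast markers 2 of 10 were measured, with a summed level of 71.0 and 51.5 CPM in KO 4 and WT 4 and 29.9 to 76.8 CPM in the others. Pdgfra was higher in the libraries numbered 4 by 0.38 on the log2 scale (SE 0.14, limma adjusted p = 0.0387), at 0.62 in KO and 0.14 in WT. Postn differed by 0.37 (SE 0.32, limma adjusted p = 0.33) and went both ways, at 1.14 in KO and -0.39 in WT. Of the leukocyte markers 1 of 10 was measured, Cd68 at 3.98 to 7.88 CPM, and of the endothelial markers 0 of 7. The part of these markers in the results was not tested. Myo1e itself was at 6.81, 6.87 and 6.81 log2 CPM in KO 4, KO 1 and KO 2, against 6.91, 7.09 and 7.02 in WT 4, WT 1 and WT 2, so its RNA was present in the libraries labelled KO. It was lower in KO in 3 of 3 pairs with no overlap, by -0.18 (SE 0.09, limma adjusted p = 0.9999, and 0.32 with the replicate block). The sample labels number the pools 1, 2 and 3 in each genotype, so no label carries the number 4 and no column the number 3. The columns numbered 4 were assigned by genotype only, and what the number stands for is not stated. It cannot be told apart from any condition that these 2 libraries share.

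The replication genes were lower in the libraries numbered 4 than in those numbered 1 and 2, in both genotypes. All 40 members passed the expression filter, and all 40 were lower past an adjusted p of 0.05 in limma's test with genotype as a covariate, where 33.8% of the 11269 genes tested were lower and 31.8% higher. That test counts KO 4 and WT 4 as separate replicates. If the numbers mark shared pairs, the pair numbered 4 is a single unit, and the p-values for these libraries can be too small. For all 40 members both libraries numbered 4 were below each of the 4 others, which held for 37.0% of all genes tested. The median difference of the members was -1.31 on the log2 scale (0.402 times), against 0.0031 over all genes tested, and 27 of 40 members differed by -1 or less, against 4.89% of all genes. The members together held 0.300% and 0.294% of the reads in KO 4 and WT 4, against 0.618%, 0.660%, 0.630% and 0.638% in KO 1, KO 2, WT 1 and WT 2. In bulk RNA, fewer cells in S phase and less of these RNAs per cell cannot be told apart.

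**Figure D1:**
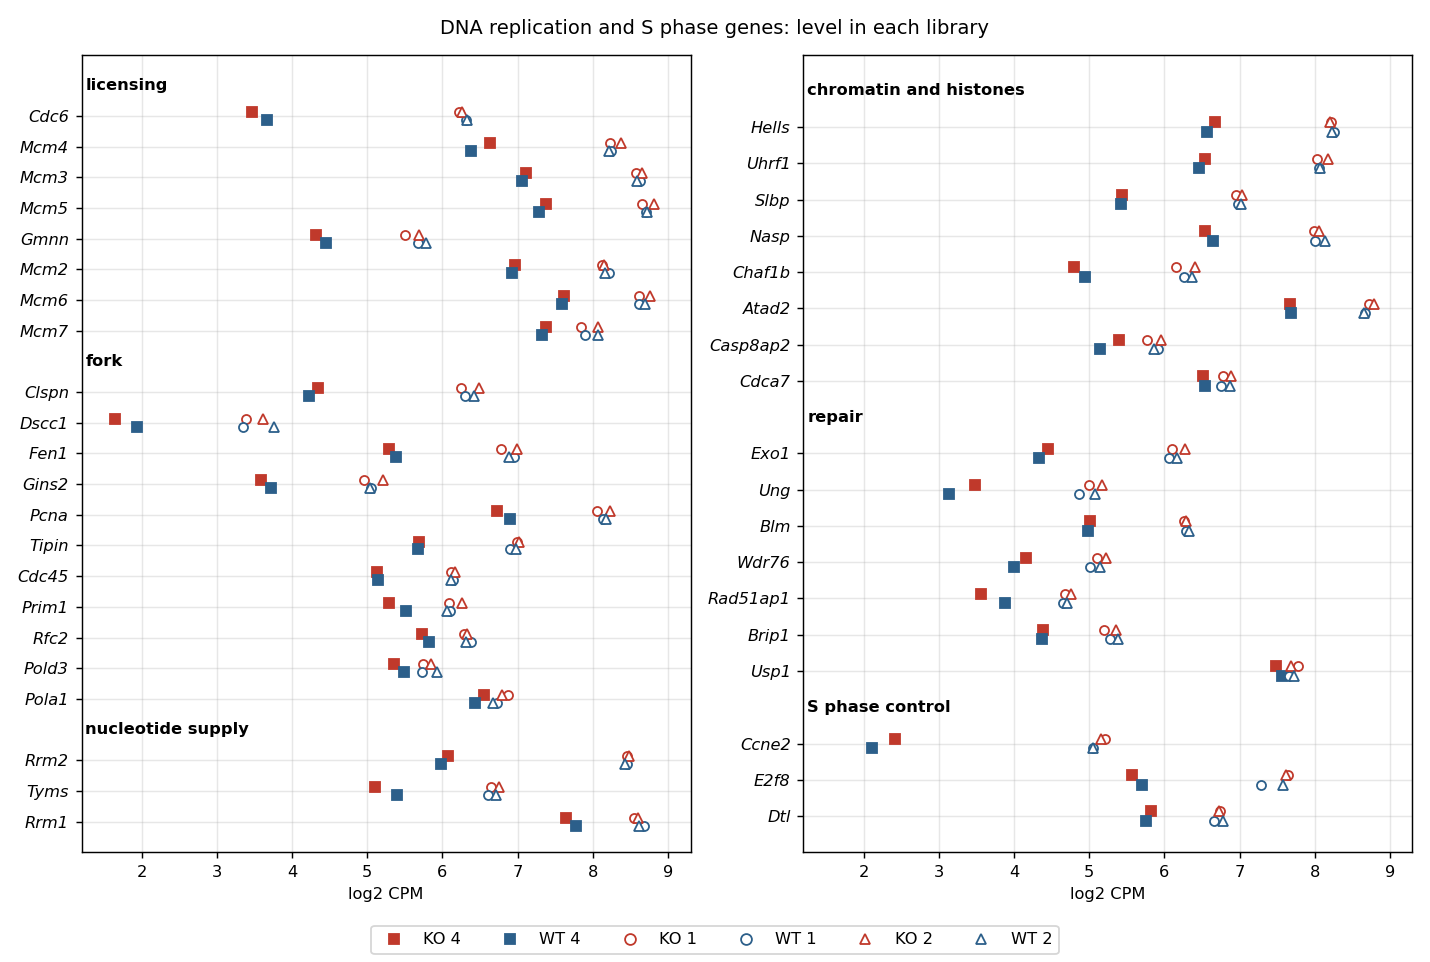
Level of each of the 40 members in each library, in log2 CPM on the horizontal axis, grouped by role and ordered by the difference of the libraries numbered 4. Filled squares are KO 4 (red) and WT 4 (blue), open circles and triangles are the libraries numbered 1 and 2, and the squares lie to the left of all open symbols in all 40 rows.

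The licensing genes had a median difference of -1.33, with 8 of 8 lower past the threshold, against 33.8% of all genes tested. Cdc6, the ATPase that loads the MCM helicase onto origins (chromosome 11, 98907801 to 98923940, plus strand, GRCm38), was at 3.46 and 3.67 log2 CPM in KO 4 and WT 4, against 6.22 and 6.26 in KO 1 and KO 2 and 6.31 and 6.33 in WT 1 and WT 2. The gap of these groups was wide against the spread within them, and the difference of -2.71 (SE 0.06, limma adjusted p = 1.6e-08) was the 22nd lowest of the 11269 genes. Behind it stood 229 and 237 reads in KO 4 and WT 4 and 1325 to 1536 reads in the others.

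The MCM subunits, which form the ring of the replicative helicase, were lower by unequal amounts. Mcm3 was at 7.11 and 7.06 log2 CPM in KO 4 and WT 4, against 8.57 and 8.65 in KO 1 and KO 2 and 8.63 and 8.58 in WT 1 and WT 2, a difference of -1.53 (SE 0.05). Mcm5 was at 7.38 and 7.29 in KO 4 and WT 4, against 8.65 and 8.82 in KO 1 and KO 2 and 8.70 and 8.73 in WT 1 and WT 2, a difference of -1.39 (SE 0.06). Mcm6, whose promoter is printed above with 3 words, was at 7.61 and 7.60 in KO 4 and WT 4, against 8.61 and 8.76 in KO 1 and KO 2 and 8.61 and 8.69 in WT 1 and WT 2, a difference of -1.06 (SE 0.06). The limma adjusted p-values of these 3 subunits were 8.6e-08, 2.6e-07 and 8.2e-07. Of the other subunits Mcm4 differed by -1.76 (SE 0.06), Mcm2 by -1.22 (SE 0.05) and Mcm7 by -0.62 (SE 0.08), so the 6 partners of 1 ring ran from -1.76 to -0.62. Exons of Mcm7 overlap those of Ap4m1 on the other strand over 7.25% of their bases, and the strand setting of the counting was not stated. Gmnn, which encodes geminin, the inhibitor of the licensing factor Cdt1, was at 4.32 and 4.45 in KO 4 and WT 4, against 5.50 and 5.69 in KO 1 and KO 2 and 5.68 and 5.79 in WT 1 and WT 2. Its difference was -1.28 (SE 0.08, limma adjusted p = 1.4e-06).

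The S phase control genes held the largest difference of the set. Ccne2, which encodes cyclin E2, the partner of the kinase that starts S phase (chromosome 4, 11191351 to 11204779, plus strand), was at 2.41 and 2.11 log2 CPM in KO 4 and WT 4, against 5.21 and 5.16 in KO 1 and KO 2 and 5.05 and 5.05 in WT 1 and WT 2. It stood on 110 and 80 reads in KO 4 and WT 4 and 614 to 718 reads in the others, and its difference of -2.85 (0.138 times, SE 0.09, limma adjusted p = 5.3e-08) was the 13th lowest of all genes tested. Exons of Ints8 on the other strand overlap 17.4% of the exon bases of Ccne2. E2f8, an atypical E2F that represses E2F targets, was at 5.57 and 5.71 in KO 4 and WT 4, against 7.64 and 7.62 in KO 1 and KO 2 and 7.29 and 7.58 in WT 1 and WT 2, a difference of -1.89 (SE 0.09). Dtl, the substrate receptor of a ubiquitin ligase that removes Cdt1 in S phase, was at 5.82 and 5.76 in KO 4 and WT 4, against 6.73 and 6.72 in KO 1 and KO 2 and 6.66 and 6.78 in WT 1 and WT 2, a difference of -0.93 (SE 0.06). The limma adjusted p-values of E2f8 and Dtl were 5.2e-07 and 1.5e-06.

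The nucleotide supply genes showed unequal differences within 1 enzyme. Rrm2, the small subunit of ribonucleotide reductase (chromosome 12, 24708241 to 24714146, plus strand), was at 6.07 and 5.98 log2 CPM in KO 4 and WT 4, against 8.45 and 8.48 in KO 1 and KO 2 and 8.45 and 8.42 in WT 1 and WT 2. Its difference was -2.42 (0.186 times, SE 0.05, limma adjusted p = 9.7e-09), the 31st lowest of all genes. Rrm1, the large subunit, was at 7.64 and 7.77 in KO 4 and WT 4, against 8.55 and 8.59 in KO 1 and KO 2 and 8.69 and 8.61 in WT 1 and WT 2, a difference of -0.90 (SE 0.05, limma adjusted p = 9.6e-07). Tyms, thymidylate synthase, was at 5.11 and 5.39 in KO 4 and WT 4, against 6.65 and 6.76 in KO 1 and KO 2 and 6.60 and 6.71 in WT 1 and WT 2, a difference of -1.43 (SE 0.08, limma adjusted p = 1.0e-06). For these 3 genes both libraries numbered 4 were below the 4 others, which held for 37.0% of all genes tested.

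At the fork, 11 of 11 genes were lower, against 33.8% of all genes tested, with a median of -1.28 and a range of -2.08 to -0.27. Pcna, the sliding clamp that tethers polymerases to DNA (chromosome 2, 132249162 to 132253314, minus strand), was at 6.73 and 6.90 log2 CPM in KO 4 and WT 4, against 8.06 and 8.23 in KO 1 and KO 2 and 8.14 and 8.17 in WT 1 and WT 2. Its difference was -1.34 (0.396 times, SE 0.07, limma adjusted p = 4.9e-07). Tipin, part of the fork protection complex, was at 5.69 and 5.68 in KO 4 and WT 4, against 6.99 and 7.02 in KO 1 and KO 2 and 6.89 and 6.97 in WT 1 and WT 2, a difference of -1.28 (SE 0.05, limma adjusted p = 2.6e-07). Dscc1, a subunit of an alternative clamp loader, was at 1.64 and 1.94 in KO 4 and WT 4, against 3.39 and 3.61 in KO 1 and KO 2 and 3.35 and 3.77 in WT 1 and WT 2, a difference of -1.74 (SE 0.15, limma adjusted p = 1.3e-05). It was the member with the fewest reads, 64 and 71 in KO 4 and WT 4, and had the largest SE.

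Pola1, the catalytic subunit of the polymerase that starts each strand, was nearly level by comparison, at 6.55 and 6.44 log2 CPM in KO 4 and WT 4, against 6.87 and 6.79 in KO 1 and KO 2 and 6.72 and 6.68 in WT 1 and WT 2. Its difference was -0.27 (0.830 times, SE 0.05, limma adjusted p = 0.0018). Of the other fork genes, Clspn, the adaptor that activates the checkpoint kinase Chk1, differed by -2.08 (SE 0.08), the flap nuclease gene Fen1 by -1.56 (SE 0.07) and the helicase subunit gene Gins2 by -1.41 (SE 0.09). Cdc45, a partner of the MCM ring, differed by -0.997 (SE 0.06), the primase gene Prim1 by -0.72 (SE 0.08), the clamp loader gene Rfc2 by -0.55 (SE 0.06) and Pold3, an accessory subunit of a replicative polymerase, by -0.39 (SE 0.08). Genes on the other strand overlap 78.8% of the exon bases of Fen1 and 67.3% of those of Gins2, so these 2 values are uncertain. Processed pseudogenes named for Pcna, Tyms and Nasp are annotated and could share reads with them.

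Chromatin and histone genes were lower in 8 of 8 cases, against 33.8% of all genes tested, with a median of -1.44. Hells, a chromatin remodeller needed for DNA methylation, was at 6.68 and 6.57 log2 CPM in KO 4 and WT 4, against 8.21 and 8.20 in KO 1 and KO 2 and 8.25 and 8.24 in WT 1 and WT 2. Its difference was -1.60 (SE 0.05, limma adjusted p = 8.4e-08). Nasp, a histone chaperone, was at 6.54 and 6.64 in KO 4 and WT 4, against 7.99 and 8.05 in KO 1 and KO 2 and 8.004 and 8.14 in WT 1 and WT 2, a difference of -1.46 (SE 0.06, limma adjusted p = 1.9e-07). Atad2, a bromodomain ATPase, was at 7.66 and 7.68 in KO 4 and WT 4, against 8.72 and 8.79 in KO 1 and KO 2 and 8.66 and 8.66 in WT 1 and WT 2, a difference of -1.04 (SE 0.05, limma adjusted p = 5.8e-07). Uhrf1, which brings the maintenance methyltransferase to new DNA, Slbp, which binds the stem-loop of histone mRNA, and Chaf1b, a subunit of chromatin assembly factor 1, differed by -1.58, -1.57 and -1.43. Casp8ap2, a histone mRNA processing factor, differed by -0.61 (SE 0.08). Cdca7, a partner of Hells, differed by -0.29 (SE 0.06, limma adjusted p = 0.0021), and its promoter holds an E2F-type word.

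The repair genes were lower in 7 of 7 cases, against 33.8% of all genes tested. Their median was -1.05, and they held the smallest difference of the set. Exo1, an exonuclease of mismatch repair, was at 4.45 and 4.33 log2 CPM in KO 4 and WT 4, against 6.10 and 6.27 in KO 1 and KO 2 and 6.06 and 6.17 in WT 1 and WT 2, a difference of -1.76 (SE 0.07, limma adjusted p = 2.3e-07). Ung, the glycosylase that removes uracil from DNA, was at 3.48 and 3.13 in KO 4 and WT 4, against 5.002 and 5.18 in KO 1 and KO 2 and 4.86 and 5.08 in WT 1 and WT 2, a difference of -1.72 (SE 0.10, limma adjusted p = 1.2e-06). Blm, a helicase that resolves recombination intermediates, was at 5.01 and 4.99 in KO 4 and WT 4, against 6.26 and 6.29 in KO 1 and KO 2 and 6.28 and 6.33 in WT 1 and WT 2, a difference of -1.29 (SE 0.06, limma adjusted p = 3.0e-07). Usp1, which removes ubiquitin from PCNA and from a Fanconi anaemia protein, was at 7.49 and 7.57 in KO 4 and WT 4, against 7.78 and 7.68 in KO 1 and KO 2 and 7.66 and 7.72 in WT 1 and WT 2. Its difference was -0.18 (0.882 times, SE 0.06, limma adjusted p = 0.018), and the call ended without KO 1 (-0.15, adjusted p = 0.056) or without KO 4 (-0.12, adjusted p = 0.23). Wdr76, Rad51ap1 and the helicase gene Brip1 differed by -1.05, -0.98 and -0.92.

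The 13 members with a word had a median difference of -1.06, ranging from -2.71 for Cdc6 to -0.27 for Pola1, and the 17 members with a window and no word had a median of -1.34, ranging from -2.42 for Rrm2 to -0.72 for Prim1. These are values of 30 genes, given without a test.

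The libraries numbered 4 were lower in each genotype taken alone. In KO, 40 of 40 members were lower in the library numbered 4, with a median of -1.34, where 27.7% of all genes tested were lower. In WT, 39 of 40 were lower past the threshold, with a median of -1.27, where 26.2% of all genes were lower. These counts fell to 36 of 40 in KO without KO 2, and to 36 of 40 in WT without KO 1 or without KO 2. The exception was Usp1, at -0.24 (SE 0.08) in KO and -0.12 (SE 0.08, limma adjusted p = 0.23) in WT, and its 2 differences were not found to differ. Across the 40 members the KO and WT differences correlated at r = 0.971, and across 11269 genes at 0.921. The 2 sets share no library, but genes are not independent replicates and each value rests on 1 library numbered 4.

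A test of the KO difference minus the WT difference passed the threshold for 0 of 40 members in limma's interaction term, where 0.0% of all genes tested passed in either direction. At an unadjusted p under 0.05 there were 1 of 40 members and 440 of 11269 genes. That member was Tyms, at -1.60 (SE 0.09) in KO and -1.26 (SE 0.09) in WT. Without WT 2, E2f8 passed, at -0.47 (SE 0.13, adjusted p = 0.0149). The extremes were Rad51ap1, with differences of -1.16 in KO and -0.80 in WT, and Casp8ap2, with -0.47 in KO and -0.75 in WT. Over the 40 members the 95% intervals of this difference lay between -0.98, the lower end for Dscc1, and 0.70, the upper end for Ung. The median lower end was -0.31 and the median upper end 0.29. Each interval rests on 1 library numbered 4 per genotype.

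**Figure D2:**
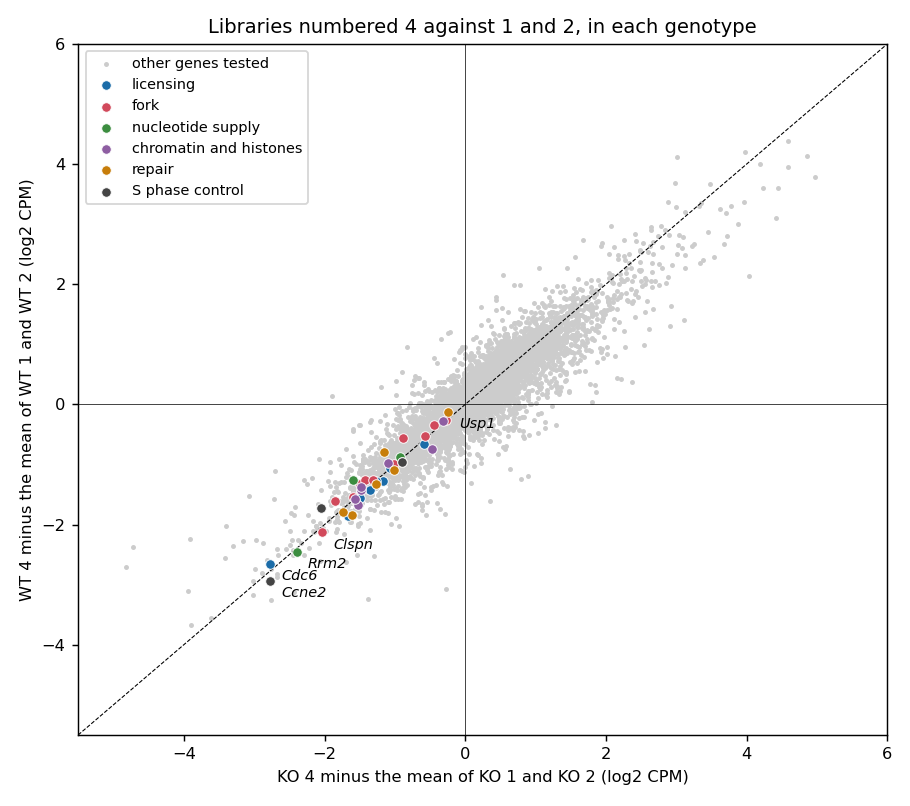
Difference of the library numbered 4 from the mean of libraries 1 and 2, in KO on the horizontal axis and in WT on the vertical axis, in log2 CPM. Each point is a gene, grey for the other genes tested and coloured by role for the 40 members, which lie along the dashed line of equality from Ccne2 (-2.77 in KO, -2.94 in WT) to Usp1 (-0.24 in KO, -0.12 in WT).

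Other genes of the same steps were also lower in the libraries numbered 4, with smaller medians. Of 102 measured further replication genes 89 were lower, 2 higher and 11 did not pass the threshold, with a median of -0.87. Among all genes tested 33.8% were lower and 31.8% higher. The fork list had 31 of 32 lower, from Dna2, a nuclease and helicase, at -2.58 and the single-strand binding subunit gene Rpa2 at -1.63, to the helicase gene Recql4 at -0.22. The clamp loader gene Rfc4, at -0.03, was the fork gene that did not pass. The licensing list had 7 of 11 lower and 1 higher. Orc1, a subunit of the origin recognition complex, differed by -1.87 and Mcm10 by -1.35, whereas Cdt1 differed by -0.02 without passing and Orc5 was higher by 0.57. In the S phase control list 11 of 13 were lower, led by Ccne1, which encodes cyclin E1, at -2.40 and the transcription factor gene Mybl2 at -1.94, while E2f3 and Rbl1 differed by -0.15 and -0.10 without passing.

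Pairs of related genes differed within these lists. Of 18 further nucleotide genes 16 were lower, with the deoxycytidine kinase gene Dck at -1.38. Rrm2b, the reductase subunit that serves cells outside S phase, was at 5.41 and 5.35 log2 CPM in KO 4 and WT 4, against 5.26 and 4.98 in KO 1 and KO 2 and 5.28 and 5.28 in WT 1 and WT 2. Its difference of 0.18 (SE 0.09) did not pass (limma adjusted p = 0.11), beside -2.42 for Rrm2. Samhd1, which degrades deoxynucleotides, differed by 0.01 without passing. Of 9 further chromatin genes 7 were lower, and the histone chaperone gene Asf1b differed by -1.002 while its paralogue Asf1a was higher by 0.45 (SE 0.06, limma adjusted p = 0.00016). The largest subunit gene of chromatin assembly factor 1, Chaf1a, differed by -1.07, and Nap1l1 by -0.11 without passing. Of 19 genes of replication-linked repair 17 were lower, with a median of -0.95, led by the recombination gene Rad54l at -2.05 and Fanca at -1.79, while the checkpoint kinase gene Atr (-0.16) and Wdr48 (0.06), which encodes the activator of Usp1, did not pass.

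Genes of mitosis were lower by less than the members, and repair genes without a link to the fork were divided. Of 25 G2/M genes 23 were lower, with a median of -0.60, from Birc5, survivin, at -1.25 and the kinesin gene Kif20a at -1.01 to Ndc80 at -0.03 and Nusap1 at 0.13, which did not pass. Of 24 genes for nucleotide excision, base excision and end joining repair 11 were lower, 7 were higher and 6 did not pass, with a median of -0.17. Ercc3 and Apex1 differed by -0.72 and -0.64, and Xpc and Xpa were higher by 0.69 and 0.97. All genes tested had 33.8% lower and 31.8% higher. The lists were not tested against each other.

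**Figure D3:**
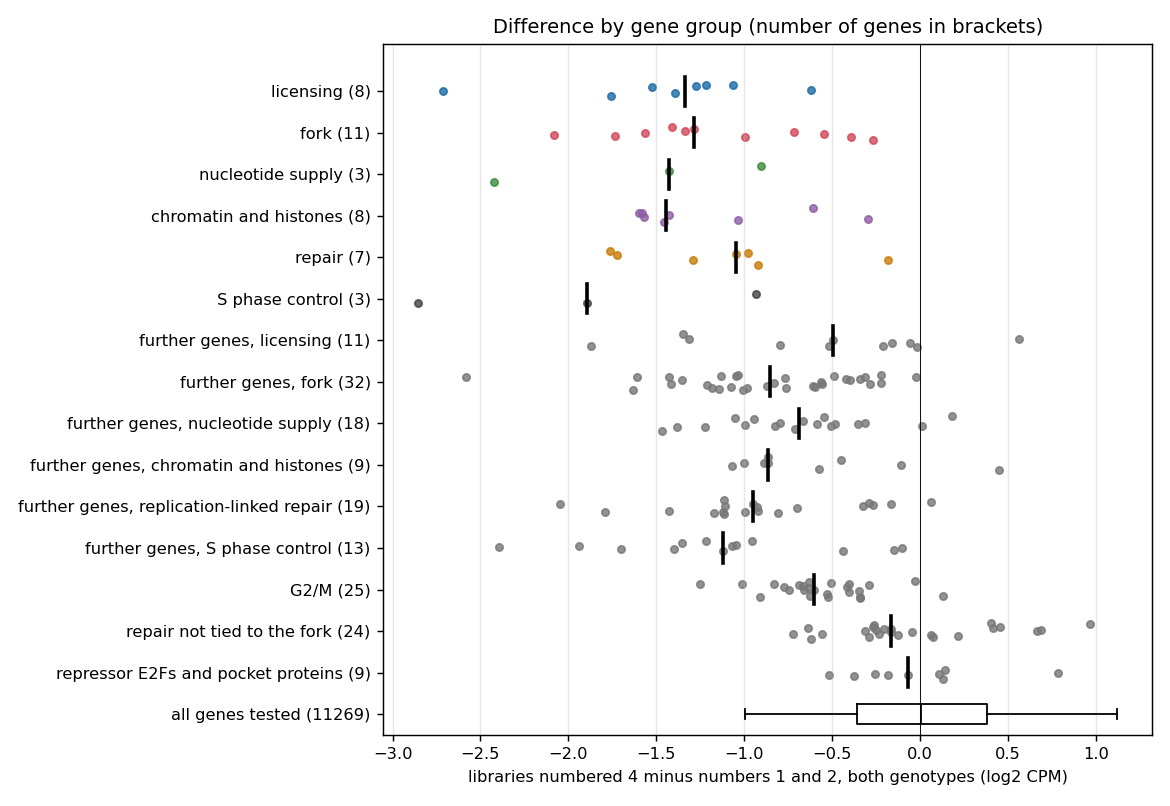
Difference of the libraries numbered 4 from those numbered 1 and 2, both genotypes together, in log2 CPM on the horizontal axis. Points are genes, thick bars are medians, and the box at the bottom shows the quartiles of all genes tested with whiskers at their percentiles 5 and 95. The 6 groups of members have medians between -1.89 and -1.05, and the further replication genes between -1.12 and -0.50.

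Between KO and WT the replication genes did not differ past the threshold. No member passed the threshold (0 of 40), where 0.0% of the 11269 genes tested were higher and 0.0% lower. Without adjustment, 0 of 40 members and 23 genes in all were under a p of 0.05 with limma, and limma voom on the recovered reads also called 0 genes. The median difference, KO minus WT, was 0.0040 over the members and -0.0071 over all genes, and all 40 members were within 0.2 of 0. Because that fit has no term for the number, the members' median SE was 0.51. With the number as a replicate block the median SE was 0.06, 0 of 40 members and 1 of 11269 genes (0.00887%, lower) passed, and the smallest adjusted p of a member was 0.44. At an unadjusted p under 0.05 the blocked fit had 3 members, Pola1, Ung and Mcm4, and 1117 genes in all. The 40 blocked 95% intervals lay between -0.42 and 0.38.

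Within each number, the KO minus WT medians of the members were 0.01, -0.02 and 0.05 in the pairs numbered 4, 1 and 2. KO was the higher in 21, 16 and 27 of the 40 members in these pairs. All 3 pairs had KO higher for 7 members, where 15.6% of all genes tested did, and lower for 4 members, where 17.0% did. Both counts are near the share among all genes or below it. For 0 of 40 members were the KO and WT libraries free of overlap, which held for 3.63% of all genes.

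The members with the largest KO minus WT differences were Ung and Ccne2 above 0 and Dscc1 and Gmnn below it. The KO mean of Ung was 4.55 ± 0.93 log2 CPM and its WT mean 4.36 ± 1.07 (SD, n = 3 each), with pair differences of 0.35, 0.14 and 0.10 in the numbers 4, 1 and 2. Ccne2 averaged 4.26 ± 1.5997 in KO and 4.07 ± 1.70 in WT (SD, n = 3 each), with pair differences of 0.30, 0.16 and 0.11. The spread in both genes is that between the numbers. Gmnn averaged 5.17 ± 0.74 in KO and 5.31 ± 0.74 in WT (SD, n = 3 each), with pair differences of -0.13, -0.18 and -0.09. Dscc1 averaged 2.88 ± 1.08 in KO and 3.02 ± 0.96 in WT (SD, n = 3 each), and its pairs went both ways, at -0.30, 0.04 and -0.16. With the replicate block the limma adjusted p of these 4 genes was 0.48, 0.51, 0.53 and 0.74.

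By role, the pair medians changed sign between numbers in 4 of the 6 roles, and were above 0 in all 3 pairs for repair and control genes. Licensing genes had medians of 0.04, -0.06 and 0.03 in the numbers 4, 1 and 2, and fork genes had -0.10, -0.03 and 0.06. Among the fork genes Pola1 was higher in KO in 3 of 3 pairs, by 0.12, 0.15 and 0.11. Its unadjusted p was 0.029 and its adjusted p 0.44 in limma with the replicate block. Tipin was also higher in KO in 3 of 3 pairs, by 0.01, 0.09 and 0.05. Nucleotide supply genes had medians of -0.13, 0.00013 and 0.05, and Tyms differed by -0.29 between KO 4 and WT 4 and by 0.05 in both other pairs. Chromatin genes had -0.0055, -0.02 and 0.03, repair genes 0.02, 0.03 and 0.05, and control genes 0.06, 0.16 and 0.03. E2f8 differed by 0.35 in the pair numbered 1 and by -0.13 and 0.03 in the pairs numbered 4 and 2. Cdc6 and Rrm2, with some of the largest differences between numbers, differed between the genotypes by -0.12 and 0.05.

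**Figure D4:**
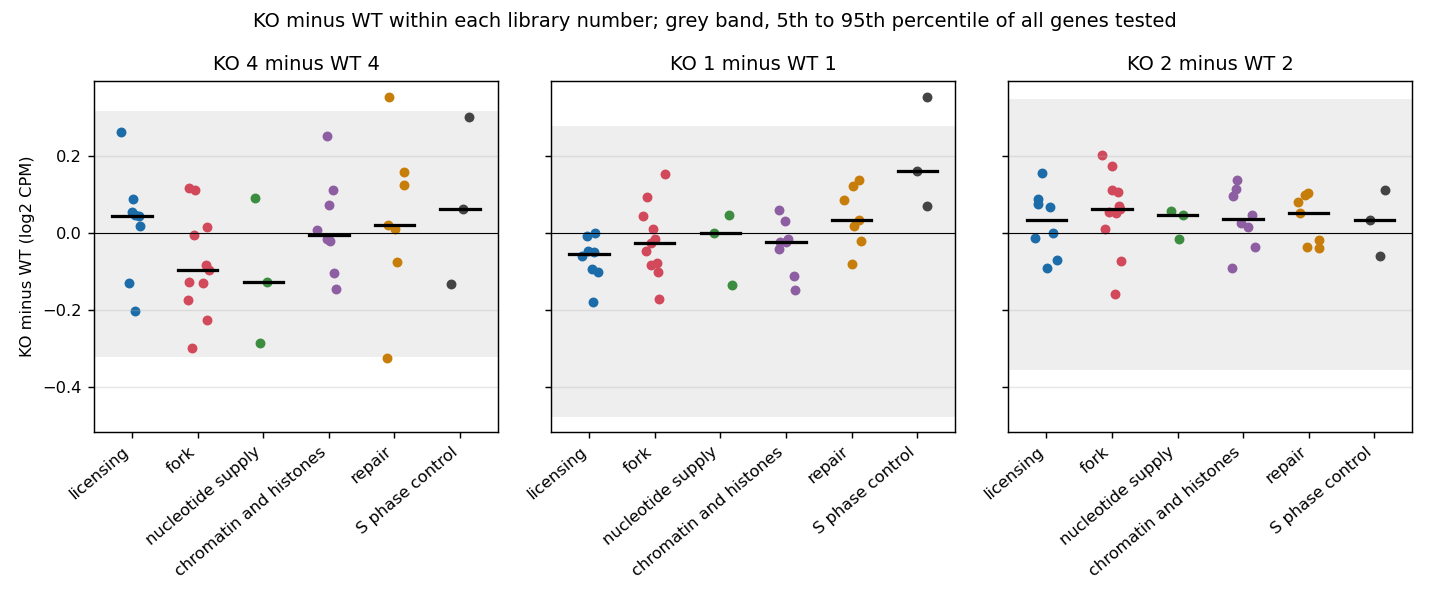
KO minus WT difference of each member in the pairs numbered 4, 1 and 2, in log2 CPM on the vertical axis, by role, with black bars at the medians. The grey band spans percentiles 5 to 95 of all genes tested, -0.32 to 0.31, -0.47 to 0.27 and -0.35 to 0.35 in the 3 panels, and 3 points lie outside it, Ung and Rad51ap1 in the pair numbered 4 and E2f8 in the pair numbered 1.

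Libraries numbered 1 and 2 of the same genotype show the spread against which these values stand. KO 2 was above KO 1 in 34 of 40 members, with a median difference of 0.11 and a largest one of 0.26 for Chaf1b. Over all genes tested this held for 5669 of 11269, with a median of 0.0012, so the members were shifted between KO 1 and KO 2. WT 2 was above WT 1 in 25 of 40 members, with a median of 0.04 and a largest difference of 0.42 for Dscc1. Over all genes tested this held for 5609 of 11269, with a median of -0.0011. The like value between genotypes, KO 2 minus WT 2, had a median of 0.05. Usp1, with the smallest difference of the libraries numbered 4 (-0.18), differed by -0.09 between KO 2 and KO 1 and by 0.07 between WT 2 and WT 1.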

How the data were processed

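RNA from 6 pools of 4T1 cells was sequenced, 3 KO and 3 WT for Myo1e. The authors deposited log2 CPM values per gene symbol. Per the submitters' processing notes, Trimmomatic 0.39, STAR 2.7.3a, featureCounts of Subread 1.6.4, edgeR and build GRCm38 were used, and the strand setting was not stated. The values returned whole reads (tolerance 0.01) for 100% of entries, with 17772003 to 19988206 reads per library and a limit of 0.144 to 0.173 CPM for a count of 0, which covers counting error only. The deposited table held 0 columns that were left unused.

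Genes that reached a log2 CPM of 0 in 3 or more libraries were kept (11269 of 11452). Differences were tested with limma 3.58.1 in R 4.3.3, with trended variance and Benjamini-Hochberg adjustment over all genes kept, two-sided, at 0.05. KO minus WT was fitted on genotype alone, the libraries numbered 4 with a genotype term, and their difference between genotypes with an interaction. The scripts were tested on simulated data. An exact permutation test of single genes could not go below 0.1 for 3 against 3 libraries, or below 0.067 for 2 against 4. The smaller p-values printed for the libraries numbered 4 rest on limma's variance model.

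The column numbers are shared by the genotypes. Deviations from the genotype means correlated between same-numbered libraries at 0.744, 0.784 and 0.921 for the numbers 1, 2 and 4. KO 1 with WT 2 gave 0.687 and KO 2 with WT 1 gave 0.617, nearly as high, and a library numbered 4 with one numbered 1 or 2 gave -0.847 to -0.746. By the rule that every same-numbered correlation exceeds 0.1, the numbers were taken as pairs, and the replicate block was run as an alternative. The crossed values of 0.687 and 0.617 are above that limit too, since each genotype mean includes its library numbered 4, which stood apart. The rule therefore cannot decide whether the numbers 1 and 2 match between genotypes, and that pairing rests on the column numbers. Separate cultures are not stated, so p-values measure the spread between these libraries, which may be technical. In the fits of the libraries numbered 4, KO 4 and WT 4 were counted as separate replicates. The spread between several pairs of that kind was not measured.

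The members and gene lists were chosen with earlier results of these data known. Full values are given for the 3 members with the highest mean level in each role, and for the 2 lowest and 2 highest members by each difference. In other lists the 2 lowest and 2 highest differences are named, except 1 gene that is not reported here. Alternatives covered filters, pseudocounts, scaling, variance models, limma voom on recovered reads, and leaving out each library. Python 3.11.15 was used for the promoter search, and coordinates are from GENCODE M21 (GRCm38).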

Additional observations from a re-analysis of the deposited data

How the results depend on the processing

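The members' lower level in the libraries numbered 4 kept its direction under every alternative run. Over 10 alternatives 39 to 40 members were called, and over the fits that left out 1 library 39 to 40, with medians of -1.34 to -1.28 and -1.34 to -1.27. Of 352 values for the 22 named genes, 348 stayed on the same side of the threshold, 0 reversed, and 4 lost the call, all of Usp1 (quantile normalization, untrended variance, without KO 1, without KO 4). Calls over all genes ran from 7073 to 7530, and from 5592 to 7495 without 1 library, beside 7398. The interaction had 0 to 1 members called without 1 library, the 1 being E2f8 without WT 2, and the cause was not tested. Within a genotype 37 to 40 members were called in KO and 36 to 39 in WT over 9 alternatives, lowest under quantile normalization (37 in KO, 37 in WT) and untrended variance (37 in KO, 36 in WT), and 36 to 40 in KO and 36 to 39 in WT without 1 library. These values could not be had without KO 4 or without WT 4.

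No member was called between KO and WT in any alternative. With the replicate block 1 gene was called over all genes, no member, and the block changed no member's call. The median KO minus WT difference of the members ran from -0.0020 to 0.0125 over 12 alternatives, and from -0.45 to 0.42 when 1 library was left out, since the numbers are then unequal between the genotypes. Depth and the number of libraries were not tested against each other as limits. Dscc1, with the fewest reads, had the largest SE (0.15, beside a median of 0.06).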

Other observations

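Inhibitors of the cell cycle did not move in 1 direction in the libraries numbered 4. Of 4 measured CDK inhibitor genes of 7 listed, Cdkn2d and Cdkn2c differed by -0.67 (SE 0.09) and -0.61 (SE 0.07), and Cdkn1b, which encodes p27, was higher by 0.54 (SE 0.07, limma adjusted p = 9.2e-05). Cdkn1a, which encodes p21, differed by -0.38 (SE 0.17) over both genotypes without passing (limma adjusted p = 0.068). In KO alone it was lower, at -0.78 (SE 0.15, limma adjusted p = 0.0034), and in WT alone it differed by 0.02 (SE 0.15, limma adjusted p = 0.93). The difference between the genotypes, -0.80 (SE 0.21), had an unadjusted p of 0.0055 and did not pass (limma adjusted p = 0.997). Of 9 repressor E2F, pocket protein and associated genes 4 were lower, 1 was higher and 4 did not pass, with a median of -0.07. For both lists the background was 33.8% of all genes tested lower and 31.8% higher. Lin9 and E2f6 differed by -0.52 and -0.37, Lin37 by 0.14 without passing, and Rb1, the retinoblastoma gene, was higher by 0.79 (SE 0.09, limma adjusted p = 8.2e-05). Between KO and WT 0 genes of these lists passed.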
